A study of Mus musculus with 6 samples.

Results

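The tumour necrosis factor (TNF) superfamily was followed across 6 distal colon transcriptomes. Members were all rows of the expression table whose symbol begins with Tnfsf or Tnfrsf and a number, together with Tnf, Lta, Ltb, Ltbr, Fas, Fasl, Cd27, Cd40, Cd40lg, Cd70, Eda, Edar and Ngfr. This gave 44 of 19844 genes, namely 18 ligands and 26 receptors, chosen by name and not by their values. The libraries came from C57BL6 mice given azoxymethane, a carcinogen, with dextran sulfate sodium, which damages colonic epithelium (AOM/DSS), and taken on day 17. One group was wild type (3 libraries) and the other was knocked out for ChREBP, the glucose-responsive transcription factor encoded by Mlxipl (3 libraries). All mice of both groups carried the AOM/DSS treatment, and untreated mice were not analysed here. The labels give neither the age of the mice, nor the deleted part of the gene, nor whether the knockout covers the whole body. They name the strain C57BL6 and the sex female for all 6, although Ddx3y, a Y-linked gene, read 9.51 to 12.11 FPKM and Xist 0.02 to 0.04 FPKM over the 6 libraries. The series asks, by its title, whether ChREBP promotes colorectal carcinogenesis through Wnt/beta-catenin signalling, and the sole comparison it allows is knockout against wild type.

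TNF superfamily ligands are mostly trimeric membrane proteins, some of them shed into the extracellular space, that cluster receptors on neighbouring cells. Receptors with a death domain can assemble caspase-activating complexes, the others recruit TRAF adaptors that activate NF-kB and MAP kinases, and decoy receptors bind ligand without passing on a signal. In the gut the family is known for epithelial death and inflammation (TNF), for building lymphoid follicles (lymphotoxin), for B cell survival and IgA (BAFF and APRIL) and for the RANK-dependent M cells above the follicles.

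Mlxipl, the targeted gene, read 5.84, 7.49 and 7.27 FPKM in wild-type replicates 1 to 3 and 3.40, 5.66 and 5.04 FPKM in knockout replicates 1 to 3. FPKM, the fragment count of a gene scaled by transcript length and library size, is the authors' unit, so levels of different genes can be set side by side on it. Each knockout library was below each wild-type library, the mean of the knockouts stood at 68.4% of that of wild type, and the difference did not pass the test (limma adjusted p = 0.9995). The epithelial markers summed to between 5503 and 6676 FPKM in the 6 libraries, the fibroblast markers to between 586.8 and 742.7 and the smooth muscle markers to between 2616 and 4242, so each library held mucosa and muscle. Depth, worked out from the step that a single read makes in 350 short non-coding genes, lay between 17700000 and 18400000 per library. In bulk tissue fewer cells of a type and less RNA per cell cannot be told apart, which applies to every value below.

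Receptors held most of the family's transcript. On the FPKM scale they made up 79.1% of the summed mean level of the 44 members, and the 4 highest, Ltbr, Tnfrsf1a, Tnfrsf21 and Tnfrsf11a, made up 52.2%. Ltbr, the lymphotoxin beta receptor of stromal and epithelial cells, read 57.72, 53.12 and 50.10 FPKM in wild type and 60.01, 56.80 and 54.24 FPKM in knockout. Tnfrsf1a, the broadly expressed TNF receptor with a death domain, read 46.91, 50.15 and 54.16 FPKM in wild type and 55.11, 47.18 and 44.64 FPKM in knockout. The ranges of these 2 receptors overlapped across libraries, so their order is not fixed in each library, whereas both lay above every value of Tnfrsf21 and Tnfrsf11a. Tnfrsf21, the death receptor DR6, read 27.17, 27.32 and 29.65 FPKM in wild type and 30.06, 27.28 and 26.79 FPKM in knockout, and was the steadiest tested member, its highest library being 1.12 times its lowest. Tnfrsf11a, the RANK receptor, read 23.54, 25.99 and 27.91 FPKM in wild type and 25.59, 31.45 and 26.93 FPKM in knockout. These values overlapped those of Tnfrsf21.

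**Figure D1:**
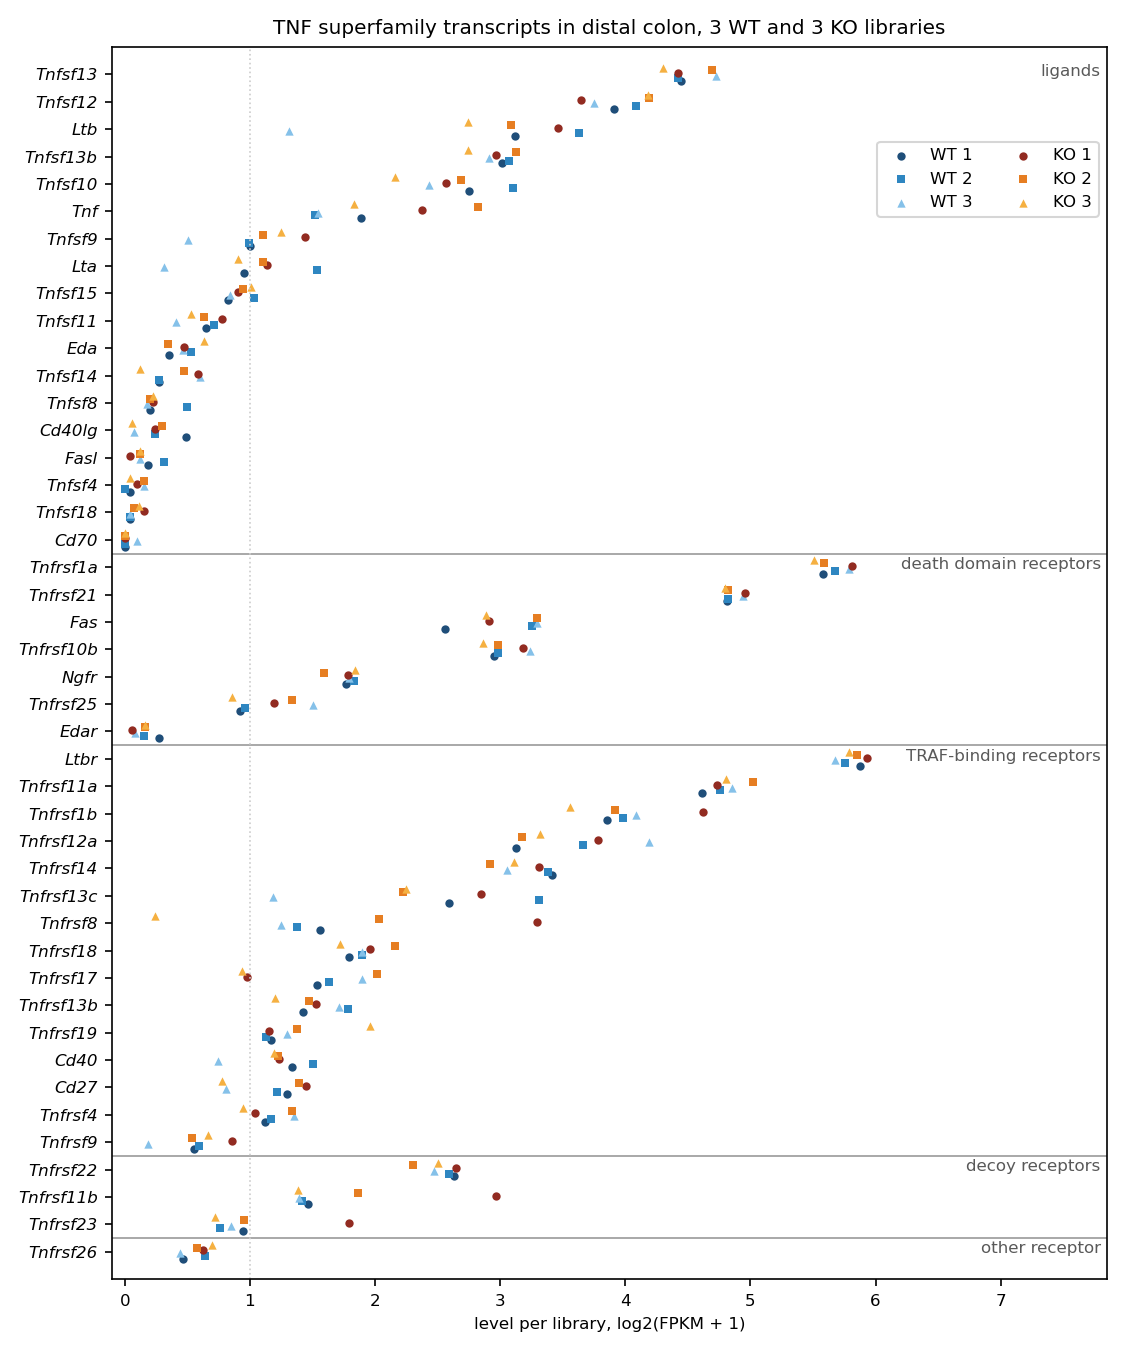
Level of all 44 members in each of the 6 libraries on the log2(FPKM + 1) scale, 1 symbol per library, blue for wild type (WT) and red to yellow for knockout (KO), ordered by role and mean level; the dotted line marks 1 FPKM. Ltbr, with a mean of 55.3 FPKM, sits highest and Cd70 lowest, and within each genotype most members lie close together while Ltb, Tnfrsf13c, Tnfrsf8 and Tnfrsf11b spread widely.

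Among the ligands, the highest were APRIL and TWEAK. Tnfsf13, which encodes APRIL, a survival factor for plasma cells, read 20.80, 20.47 and 25.50 FPKM in wild type and 20.43, 24.91 and 18.75 FPKM in knockout. Tnfsf12, which encodes TWEAK, a ligand in tissue repair, read 14.02, 15.96 and 12.48 FPKM in wild type and 11.51, 17.23 and 17.18 FPKM in knockout. The 2 genes are neighbours, and reads could be split between them and their read-through transcript, which the table lists as Tnfsfm13 at 0 to 0.23 FPKM. Tnfsf13b, which encodes the B cell survival factor BAFF, was steady at 7.08, 7.38 and 6.50 FPKM in wild type and 6.80, 7.71 and 5.70 FPKM in knockout. Of the 18 ligands, 5 had a mean of at least 5 FPKM over all libraries, the others in that range being Ltb and Tnfsf10.

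Of the 18 ligands 10 did not pass the filter on low values described with the test. Fasl, which encodes the ligand that kills Fas-bearing cells, read 0.14, 0.24 and 0.09 FPKM in wild type and 0.03, 0.09 and 0.09 FPKM in knockout, or about 1.05 to 8.08 reads per library. Cd40lg lay between 0.04 and 0.40 FPKM, Tnfsf14 (LIGHT) between 0.09 and 0.52, Tnfsf8 (CD30 ligand) between 0.13 and 0.41, and Tnfsf4 (OX40 ligand) between 0 and 0.11. Cd70 was listed at 0 in 5 libraries and at 0.07 FPKM in wild-type replicate 3, about 0.999 of a read. Tnfsf18, the GITR ligand, read 0.03 FPKM in each wild-type library and 0.11, 0.05 and 0.08 FPKM in knockout, groups that do not overlap but rest on about 1.08 to 4.11 reads each. With no filter on low values its limma adjusted p was 0.9861. The 9 T cell markers summed to between 14.87 and 28.81 FPKM.

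Receptors were more abundant than their ligands in most of the cognate pairs compared, mainly where the ligand was low. The pairs, a list made by hand, held 17 ligands and 20 receptors and did not cover every pairing in the family. It left out, for example, Tnfsf13b (mean 6.86 FPKM) with Tnfrsf13b (1.89) and Tnfrsf17 (1.94), where the ligand had the higher mean. Of 20 ligand and receptor pairs compared within each library, the receptor was higher in all 6 libraries in 12 pairs. The ligand was higher in all 6 in 4 pairs, and 4 pairs were mixed. Among the 12, only Tnf with Tnfrsf1a, Tnf with Tnfrsf1b and Ltb with Ltbr had a ligand that passed the filter on low values. Fas, the death receptor bound by Fasl, read 4.90, 8.55 and 8.79 FPKM in wild type and 6.54, 8.83 and 6.40 FPKM in knockout, 35.0 to 218 times its ligand. Tnfrsf11a exceeded Tnfsf11, which encodes its ligand RANKL, by 36.0 to 84.6 times. Tnfsf11 itself read 0.57, 0.64 and 0.33 FPKM in wild type and 0.71, 0.55 and 0.44 FPKM in knockout, with overlapping groups. The 4 pairs in which the ligand was higher throughout were Tnfsf13 with its plasma cell receptors Tnfrsf13b (TACI) and Tnfrsf17 (BCMA), Tnfsf9 with Tnfrsf9 (4-1BB), and Eda with Edar. Tnfsf12 and its receptor Tnfrsf12a (Fn14), induced in injured epithelium, were mixed, the receptor being 0.466 to 1.38 times the ligand.

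No member passed the test between genotypes. The test, limma on log2(FPKM + 1), took genes reaching 1 FPKM in 3 or more libraries, and 30 of the 44 members passed that filter (8 ligands and 22 receptors). Of these 30, limma called 0 at a Benjamini-Hochberg adjusted p under 0.05, against 2 of all 13247 genes tested (0.0151%). Adjusted p was 0.9995 or above for each of the 30. At an unadjusted p under 0.05 there were 2 members, Tnf and Tnfsf9, against 3.4% of all genes. Both were higher in knockout, where 1.7% of all genes were higher and 1.7% lower at that p. Groups did not overlap in 1 tested member, Tnfsf9 with knockout above, against 8.67% of all genes and 4.53% with knockout above. The log2 fold changes are given as knockout against wild type on log2(FPKM + 1), a scale that understates changes of low genes. They were positive for 16 members and negative for 14, with a median of 0.01 for the members and 0.009 for all genes. Directions of Tnfrsf21, Fas, Cd40 and Tnfrsf25, all close to 0, flipped under at least 1 rescaling of the libraries.

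**Figure D2:**
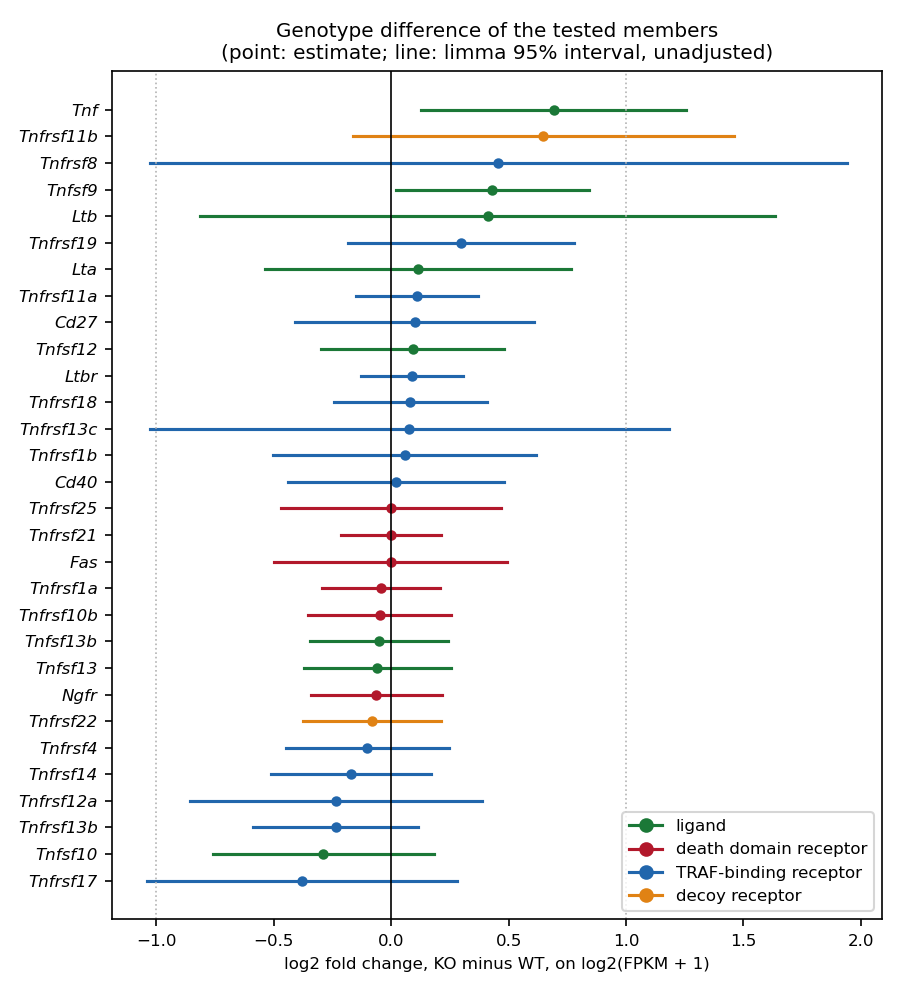
Difference between genotypes for the 30 tested members on the log2(FPKM + 1) scale, KO minus WT, with limma's 95% interval, coloured by role; dotted lines mark 2-fold. Tnf and Tnfsf9 are the members whose unadjusted interval lies wholly on 1 side of 0, and 24 of the 30 intervals lie within 2-fold.

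Tnf had the smallest p of the family. It encodes the founding ligand, made mainly by macrophages and T cells, and read 2.70, 1.87 and 1.92 FPKM in wild type (2.16 ± 0.465, SD, n = 3) and 4.19, 6.07 and 2.56 FPKM in knockout (4.27 ± 1.76, n = 3). Knockout replicates 1 and 2 lay above all wild-type libraries, and knockout replicate 3 lay below wild-type replicate 1. The log2 fold change was 0.69 (SE 0.24, 95% interval 0.13 to 1.25), and did not pass (limma adjusted p = 0.9995, unadjusted p = 0.0222). It was 0.45 without knockout replicate 2, and 0.95 without knockout replicate 3 (limma adjusted p = 0.9994). The values rest on about 50.1 to 164.8 reads per library. The macrophage and monocyte markers, summing to 198.2, 204.0 and 270.0 FPKM in wild type and 171.4, 286.0 and 167.0 in knockout, were highest in knockout replicate 2, as Tnf was, but were lowest in knockout replicate 3 and next lowest in knockout replicate 1, and their part in the result was not tested.

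Tnfsf9, which encodes the 4-1BB ligand of antigen-presenting cells, was the one tested member whose groups did not overlap. It read 1.0, 0.99 and 0.42 FPKM in wild type and 1.71, 1.15 and 1.37 FPKM in knockout. Its log2 fold change was 0.43 (SE 0.18, 95% interval 0.02 to 0.84, limma adjusted p = 0.9995). Without wild-type replicate 3, which was the lowest, the log2 fold change was 0.27. Its values rest on about 9.32 to 39.5 reads. Its receptor Tnfrsf9, at 0.14 to 0.81 FPKM, was too low to be tested and had its highest value in knockout replicate 1 and its lowest in wild-type replicate 3, as Tnfsf9 did.

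Death domain receptors differed little between genotypes. All 6 tested had 95% intervals within 2-fold, as did 97% of all genes tested, with log2 fold changes between -0.06 and 0.0005. For Tnfrsf1a the log2 fold change was -0.04 (95% interval -0.30 to 0.21). Tnfrsf10b, the mouse TRAIL death receptor, read 6.73, 6.92 and 8.45 FPKM in wild type and 8.08, 6.90 and 6.29 FPKM in knockout. Its ligand Tnfsf10 read 5.75, 7.58 and 4.39 FPKM in wild type and 4.94, 5.43 and 3.47 FPKM in knockout (log2 fold change -0.29, SE 0.20), with overlapping groups. Ngfr, the neurotrophin receptor p75 found on enteric glia, lay between 2.01 and 2.58 FPKM, and Tnfrsf25 (DR3) between 0.81 and 1.83. Edar, the ectodysplasin receptor of skin appendages, was untested at 0.04 to 0.21 FPKM.

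Ltb, Lta, Tnfrsf13c and Cd40 had both their highest and their lowest value within wild type. Ltb, the ligand of Ltbr on lymphocytes, read 7.68, 11.37 and 1.49 FPKM in wild type and 10.04, 7.51 and 5.68 FPKM in knockout. Tnfrsf13c, the BAFF receptor of B cells, read 5.03, 8.93 and 1.27 FPKM in wild type and 6.20, 3.66 and 3.75 FPKM in knockout. In both genes the extremes were a pair of wild-type mice. Lta, the partner of Ltb in the lymphotoxin heterotrimer, read 0.94, 1.90 and 0.24 FPKM in wild type and 1.20, 1.15 and 0.87 FPKM in knockout. Cd40, the receptor through which T cells help B cells, read 1.53, 1.84 and 0.68 FPKM in wild type and 1.35, 1.34 and 1.29 FPKM in knockout. All 4 were highest in wild-type replicate 2 and lowest in wild-type replicate 3, and they are grouped here for that reason. They were 4 of the 30 tested members (13.3%), against 3.93% of all genes tested. The untested Tnfsf8 had the same extremes. Tnfrsf12a also had both extremes within wild type, but was highest in replicate 3 and lowest in replicate 1. Other members found on lymphocytes, among them Tnfrsf8, Cd27, Tnfrsf17 and Tnfrsf18, had other libraries at their extremes. The log2 fold change of Ltb was 0.41 (95% interval -0.81 to 1.63) and turned to -0.28 without wild-type replicate 3. That of Tnfrsf13c was 0.08 (95% interval -1.03 to 1.18) and turned to -0.51 without the same library and to -0.13 without knockout replicate 1.

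B cell markers had the same libraries at their extremes as these 4 members. The 8 markers summed to 93.02, 137.2 and 25.34 FPKM in wild type and 91.10, 75.48 and 62.58 FPKM in knockout, and each of the 8 was highest in wild-type replicate 2 and lowest in wild-type replicate 3. So were 10 of the 15 genes of the non-canonical NF-kB and lymphoid organ list, while Ccl21a, Ccl21b, Ccl21c, Glycam1 and Bcl2a1b were not. Of the 10, Cxcl13, the chemokine that draws B cells into follicles, read 21.50, 36.65 and 5.80 FPKM in wild type and 29.54, 16.88 and 16.48 FPKM in knockout, and Cr2, the complement receptor of B cells and follicular dendritic cells, 3.31, 4.65 and 0.52 FPKM against 3.95, 2.12 and 2.35 FPKM. Dividing each member by the B cell marker sum of its own library, a step chosen after the values were seen, reduced the ratio of the highest to the lowest library from 7.63 to 1.87 for Ltb, from 7.03 to 1.4 for Tnfrsf13c and from 7.92 to 1.61 for Lta. For Cd40 it went from 2.71 to 2.0, whereas for Cd27, a receptor of T and memory B cells, it went from 2.44 to 3.05. The B cell sum shared its highest and lowest libraries with Ltb, Tnfrsf13c, Lta and Cd40, so a smaller ratio was likely beforehand. The division therefore cannot show which cells the transcripts came from. The part of B cells in the member values was not tested.

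**Figure D3:**
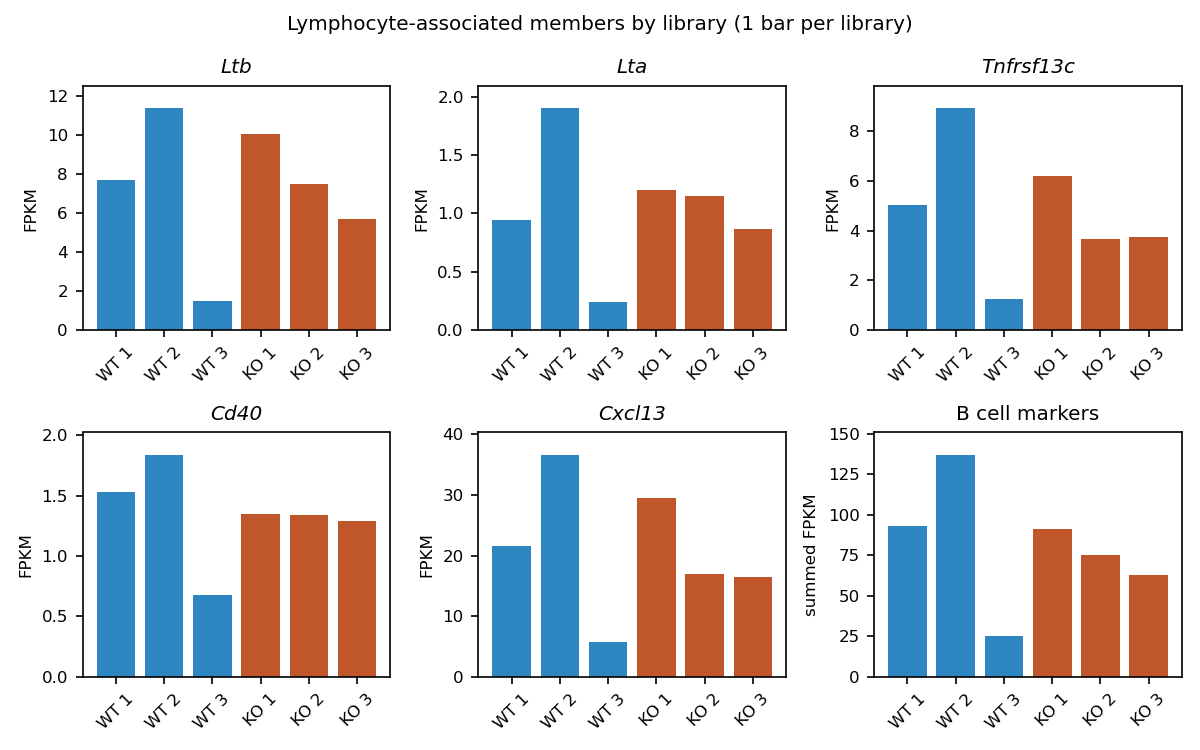
FPKM of Ltb, Lta, Tnfrsf13c, Cd40 and the follicle chemokine Cxcl13, and the summed FPKM of the 8 B cell markers, 1 bar per library, blue for WT and orange for KO. In all 6 panels WT 2 is the highest bar and WT 3 the lowest, with the B cell sum at 137.2 and 25.34.

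The upstream sequence of Ltb is shown because it was the one member with a match to a canonical NF-kB site in the 250 bases before its start. The motif searched, on both strands, was GGGA and TTCC with 2 bases of any kind between them, which 1.21% of 32851 RefSeq promoters (GRCm38.p6) hold in that window. Promoters matched 34 of the 44 members. The stretch is chr17:35194257-35194506 on the plus strand, a build other than the mm39 the submitters' processing notes name, with the match, which reads on the minus strand and begins 87 bases before the start, in capitals. It is a match of letters and not a measured site.
Ltb: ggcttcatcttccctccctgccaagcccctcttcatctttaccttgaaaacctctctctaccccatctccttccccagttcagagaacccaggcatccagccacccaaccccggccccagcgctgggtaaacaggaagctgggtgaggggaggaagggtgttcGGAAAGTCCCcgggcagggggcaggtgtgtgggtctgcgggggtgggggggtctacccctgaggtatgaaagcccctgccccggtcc

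Tnfrsf17 and Tnfrsf13b, both receptors for APRIL, differed in their order of libraries. Tnfrsf17, the receptor BCMA of plasma cells, read 1.90, 2.10 and 2.73 FPKM in wild type and 0.97, 3.05 and 0.91 FPKM in knockout (log2 fold change -0.38, SE 0.29), so that knockout replicate 2 was the highest library and the other 2 knockouts the lowest. Without knockout replicate 2 its log2 fold change was -0.73 (limma adjusted p = 0.9944), without knockout replicate 1 it was -0.21 and without knockout replicate 3 it was -0.19. The plasma cell markers, led by Jchain, summed to 415.7, 386.9 and 463.1 FPKM in wild type and 282.9, 461.9 and 186.5 FPKM in knockout, with the same 2 knockout libraries lowest. Their part in the result was not tested. Tnfrsf13b, the receptor TACI, read 1.68, 2.44 and 2.27 FPKM in wild type and 1.88, 1.78 and 1.30 FPKM in knockout (log2 fold change -0.24, SE 0.15), with overlapping groups and its highest value in wild-type replicate 2. Set against the plasma cell sum, the ratio of the highest to the lowest library went from 3.35 to 1.93 for Tnfrsf17 and from 1.88 to 1.81 for Tnfrsf13b. This division too was chosen after the values were seen. As Tnfrsf17 shared its 2 lowest libraries with the sum, a smaller ratio was likely beforehand. The division therefore cannot show which cells its transcripts came from.

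Tnfrsf8, Tnfrsf11b, Tnfrsf1b and Tnfrsf23 were highest in knockout replicate 1. Tnfrsf8, the lymphocyte activation receptor CD30, read 1.95, 1.60 and 1.38 FPKM in wild type and 8.80, 3.08 and 0.18 FPKM in knockout, so the knockout group held both the highest and the lowest library, 48.9 times apart. Tnfrsf11b, which encodes osteoprotegerin, the soluble decoy for RANKL, read 1.76, 1.67 and 1.62 FPKM in wild type and 6.83, 2.63 and 1.61 FPKM in knockout. Knockout replicate 2 also lay above all wild-type libraries for both genes. The log2 fold change of Tnfrsf11b, 0.65 (SE 0.35, 95% interval -0.16 to 1.46), was 0.20 without knockout replicate 1 and 0.99 without knockout replicate 3. The log2 fold change of Tnfrsf8 was 0.46 (95% interval -1.03 to 1.94), -0.26 without knockout replicate 1 and 1.26 without knockout replicate 3.

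Tnfrsf1b, the TNF receptor of leukocytes, was also highest there, at 23.62 FPKM against 14.08 and 10.80 FPKM in the other knockouts and 13.49, 14.81 and 15.98 FPKM in wild type. Its log2 fold change of 0.06 turned to -0.24 without knockout replicate 1 and to -0.002 without wild-type replicate 1. Tnfrsf23, a decoy receptor for TRAIL specific to mice and untested here, read 2.47 FPKM in that library and 0.65 to 0.94 FPKM in the other 5, while its close paralog Tnfrsf22 lay between 3.93 and 5.27 FPKM, and reads of the 2 may have been split between them. Of 6 neutrophil markers 3 were also highest there, S100a8 at 6.04, S100a9 at 6.55 and Retnlg at 0.56 FPKM. The other 3 were not: Cxcr2 was highest in wild-type replicate 2, Csf3r in knockout replicate 2, and Mpo, at 0.16 FPKM or less in all libraries, was lowest in knockout replicate 1. The 6 summed to 18.46 FPKM in knockout replicate 1 and to between 5.89 and 8.63 FPKM elsewhere, the gap coming mainly from S100a8 and S100a9. Cxcl5, an epithelial chemokine for neutrophils, read 13.83, 4.05 and 2.43 FPKM in knockout against 2.12, 1.84 and 1.62 FPKM in wild type. The 5 markers of anal squamous epithelium, led by Krt14 and Krt13, summed to 6.81 FPKM in knockout replicate 1 and to between 1.07 and 3.08 FPKM elsewhere. The part of these cells in the receptor values was not tested.

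**Figure D4:**
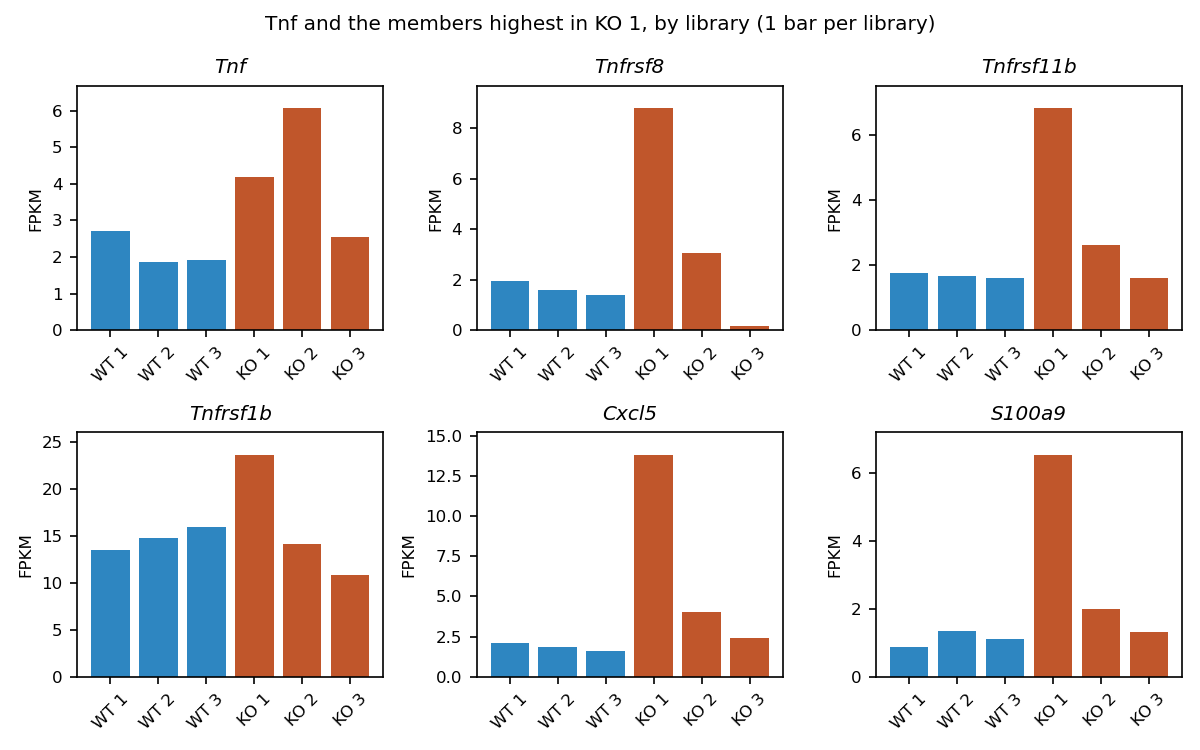
FPKM of Tnf, Tnfrsf8, Tnfrsf11b and Tnfrsf1b beside the neutrophil-related genes Cxcl5 and S100a9, 1 bar per library, blue for WT and orange for KO. KO 1 is the highest bar in each panel except that of Tnf, where KO 2 is highest at 6.07 FPKM, and KO 3 lies within or below the WT bars for all 4 members.

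Knockout replicate 3 lay at the other end. It was the lowest of the 6 libraries for 15 of the 30 tested members (50%), against 15.6% of all genes tested, and the highest for 2, namely Ngfr and Tnfrsf19, against 15.7%. Knockout replicate 1 was the highest for 9 (30%), against 17.3% of all genes, and the lowest for 1, Tnfsf12, against 20.7%. The summed level of all 44 members was 276.7 FPKM in knockout replicate 3 and 340.3 FPKM in knockout replicate 1, which enclosed the wild-type sums of 291.1, 314.2 and 301.7 FPKM. Markers of T cells (14.87 FPKM), plasma cells (186.5), macrophages (167.0, with 171.4 in knockout replicate 1) and dendritic cells (6.17) had their lowest sums in knockout replicate 3. Smooth muscle markers had their highest there, at 4242 FPKM. Other immune lists were not lowest there. B cell markers summed to 62.58 FPKM, above 25.34 in wild-type replicate 3. Innate lymphoid and NK cell markers summed to 20.09, above 16.05 in knockout replicate 1. Neutrophil markers summed to 6.32, above 5.89 in wild-type replicate 1. The part of all these cells in the member values was not tested.

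**Figure D5:**
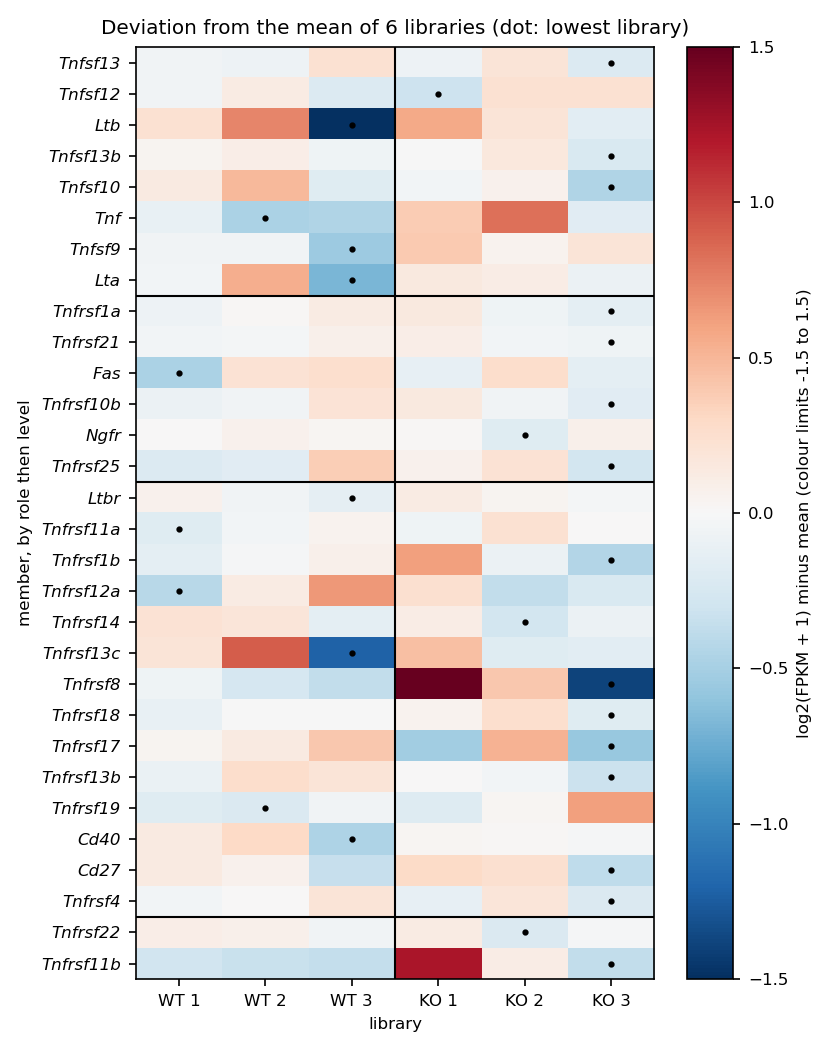
Deviation of each tested member from its own mean over the 6 libraries on the log2(FPKM + 1) scale, members in rows by role and libraries in columns, with a dot on the lowest library of each row. Of 30 dots 15 fall on KO 3 and 6 on WT 3, and the darkest cells are Tnfrsf8 in KO 1 and KO 3, Tnfrsf11b in KO 1, and Ltb and Tnfrsf13c in WT 3.

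The spread within genotypes divided the family further. The residual SD on the log2(FPKM + 1) scale had a median of 0.27 over the tested members and 0.16 over all genes tested. Set against all tested genes of 0.5 to 2 times its own mean level, the residual SD of 10 of the 30 members was above the 90th percentile, namely Tnfrsf8, Ltb, Tnfrsf13c, Tnfrsf11b, Tnfrsf17, Lta, Tnfrsf12a, Tnfrsf1b, Tnf and Fas. Ngfr, Tnfrsf21 and Ltbr, at percentiles of 10.9, 12.9 and 18.8, were the steadiest. The 95% interval lay within 2-fold for 24 of 30 members, against 97.0% of all genes.

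Tnfrsf12a, the TWEAK receptor, read 7.75, 11.68 and 17.25 FPKM in wild type and 12.76, 8.03 and 8.98 FPKM in knockout (log2 fold change -0.24, 95% interval -0.86 to 0.39). It was highest in wild-type replicate 3, the library lowest for Ltb, and its log2 fold change was 0.03 without that library. Tnfrsf19, the orphan receptor TROY of intestinal stem cells and stroma, read 1.25, 1.19 and 1.46 FPKM in wild type and 1.22, 1.60 and 2.89 FPKM in knockout (log2 fold change 0.30, SE 0.21). Its high value came from knockout replicate 3 alone, and without that library the log2 fold change was 0.07. Tnfrsf14, the receptor HVEM of lymphocytes and epithelium, read 9.67, 9.43 and 7.29 FPKM in wild type and 8.90, 6.56 and 7.64 FPKM in knockout, with overlapping groups (log2 fold change -0.17, SE 0.15). For Tnfrsf11a the log2 fold change was 0.11 (SE 0.11) and for Ltbr it was 0.09 (SE 0.09). Of the remaining receptors, Tnfrsf18 (GITR), a regulatory T cell receptor, lay between 2.30 and 3.46 FPKM, and Tnfrsf4 (OX40), on activated T cells, between 0.93 and 1.55. Cd27 lay between 0.71 and 1.73 FPKM. The untested Tnfsf15, the ligand TL1A of DR3, lay between 0.77 and 1.05, Eda, the ectodysplasin ligand, between 0.27 and 0.55, and Tnfrsf26 between 0.36 and 0.62.

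ChREBP binds paired E-boxes with its partner Mlx, so the 250 bases before each start were also searched for the E-box CACGTG, which reads the same on both strands. The 34 members with a RefSeq promoter had 38 promoters. The E-box was found in 5 of these 38, those of Fas, Ltbr, Tnfrsf19, Tnfrsf4 and Tnfrsf8, and in 6.02% of all 32851 promoters. A pair of CACGTG with 5 bases of any kind between them was found for 0 members and in 0 promoters of all. As no promoter of any gene held this exact pair, the search cannot tell whether members have or lack ChREBP sites. The 5 stretches are shown, 60 bases each with the E-box in capitals, because they hold the letters of a single E-box of the pair. They lie on GRCm38.p6 at chr19:34290522-34290581 (Fas, plus strand), chr6:125313978-125314037 (Ltbr, minus strand), chr14:61038088-61038147 (Tnfrsf19, minus strand), chr4:156013594-156013653 (Tnfrsf4, plus strand) and chr4:145315251-145315310 (Tnfrsf8, minus strand).
Fas: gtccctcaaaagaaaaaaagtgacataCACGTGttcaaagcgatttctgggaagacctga
Ltbr: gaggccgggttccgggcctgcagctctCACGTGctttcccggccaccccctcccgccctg
Tnfrsf19: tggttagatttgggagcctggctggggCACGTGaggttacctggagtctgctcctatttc
Tnfrsf4: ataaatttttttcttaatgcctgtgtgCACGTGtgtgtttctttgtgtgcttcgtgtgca
Tnfrsf8: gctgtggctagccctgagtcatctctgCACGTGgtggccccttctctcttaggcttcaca
None of these 5 genes was called between genotypes by limma, none had an unadjusted p under 0.05, and the groups of all 5 overlapped.

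The signalling machinery downstream of the receptors was measured through lists. Of 38 adaptors, kinases, ligases and caspases of TNF receptor signalling, all tested, 24 were higher and 14 lower in knockout by the sign of the fitted difference, whose median was 0.04 on the log2 scale beside 0.009 for all genes. Limma called 0, 1 had an unadjusted p under 0.05 against 3.4% of all genes, and groups did not overlap in 5 against 8.67%. Chuk, the kinase IKK-alpha of the non-canonical NF-kB route, read 20.00, 19.42 and 19.22 FPKM in wild type and 17.55, 14.60 and 16.12 FPKM in knockout. Birc3, the ubiquitin ligase cIAP2 and an NF-kB target, read 24.60, 26.42 and 27.10 FPKM in wild type and 27.68, 35.34 and 29.93 FPKM in knockout. These 2 genes went opposite ways. Ikbkb, the kinase IKK-beta, read 15.91, 16.73 and 15.86 FPKM in wild type and 18.69, 19.09 and 17.10 FPKM in knockout. Rbck1, the HOIL-1 subunit of the linear ubiquitin ligase, read 32.51, 31.06 and 30.83 FPKM in wild type and 34.24, 37.04 and 34.13 FPKM in knockout. Cyld, a deubiquitinase that restrains NF-kB, read 7.25, 7.54 and 8.15 FPKM in wild type and 6.64, 6.90 and 6.38 FPKM in knockout. These are the 5 genes whose groups did not overlap, 3 with knockout above and 2 (Chuk and Cyld) with knockout below, and each had a limma adjusted p of 0.9995.

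Of 26 NF-kB and TNF response genes 19 were tested, 10 positive and 9 negative, with a median log2 fold change of 0.08, 0 called by limma and 1 at an unadjusted p under 0.05 (Cxcl5). Nfkbia, the inhibitor I-kappa-B-alpha and a rapid NF-kB target, read 49.26, 45.64 and 37.46 FPKM in wild type and 47.23, 77.87 and 55.05 FPKM in knockout, with overlapping groups. Like Tnf and Birc3, it had its highest value in knockout replicate 2, the highest library for 25.7% of all genes tested. Of 15 genes of non-canonical NF-kB and lymphoid organs 13 were tested, 11 positive and 2 negative, with a median of 0.09, and limma called 0 with 0 at an unadjusted p under 0.05. The list of partners and relatives outside the symbol rule had 7 of 9 tested, 3 positive and 4 negative, with 0 called by limma and 0 at an unadjusted p under 0.05. In it Rhbdf2, which helps the TNF-shedding protease mature, lay between 6.48 and 9.80 FPKM. Of 73 tested entries in 14 cell type marker lists, limma called 0 and 1 had an unadjusted p under 0.05.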

How the data were processed

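Per the file headers, the authors deposited FPKM values in a single table, 1 column for each library. HISAT2, RSEM and mm39 as genome build appear in the submitters' processing notes, their versions and filters being not given in the sources used here. Genotype labels gave the groups and titles the replicate numbers. The series design counts 3 mice per group. The p-values set the difference between genotypes against the spread between these samples, which limma estimates partly from all genes tested. limma 3.58.1 (R 4.3.3; mean-variance trend, genotype as sole term, two-sided) was run on log2(FPKM + 1) of genes reaching 1 FPKM in 3 or more libraries, with Benjamini-Hochberg adjustment over 13247 genes, after a check on simulated data.

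The members, 4 pathway lists, 14 marker lists and tests were chosen with earlier results of these data known. Values per library are given for tested members without group overlap, the 10 of smallest p, the 10 of highest level and a set named in any case, and up to 4 genes of smallest p were eligible per list. Tnfrsf8, Tnfrsf10b, Cd40, Tnfsf18, Tnfrsf23 and the list genes Cxcl13, Cr2, Cyld, Retnlg and Mpo were chosen after their values were seen. Member roles were assigned by hand.

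Depth came from 350 short non-coding genes: with a length offset of 36 bases, 83.6% to 87.3% of 116 to 143 values per library lay within 0.05 of a whole read. Approximate reads of members used GENCODE transcript lengths. Promoters are RefSeq, GRCm38.p6. Python 3.11.15, pandas 2.3.3 and matplotlib 3.10.9 were used.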

Additional observations from a re-analysis of the deposited data

How the results depend on the processing

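Over 15 alternatives limma called 0 members in each, with 0 to 3 members at an unadjusted p under 0.05, and the smallest adjusted p of any of the 16 members followed was 0.7957. The number of all genes called, 2 in the main comparison, was 0 with a mean of at least 5 FPKM required and 0 with the replicate number as a block, and lay between 0 and 1 when a library was left out. Of the 17 log2 fold changes followed (16 members and Mlxipl), 11 kept their direction under every alternative that could be run and 6 reversed at least once. In the main comparison the 11 had a limma unadjusted p of 0.3772 or less, and the 6 had 0.4063 or more. The tested members of smallest p in these same data were all among those followed. The count therefore cannot show how steady directions are across the family. With array weights Ltb turned to -0.096, Tnfrsf8 to -0.003, Tnfrsf13c to -0.320 and Tnfrsf1b to -0.023. Leaving out 1 library gave -0.275 to 0.881 for Ltb, -0.263 to 1.264 for Tnfrsf8, -0.513 to 0.551 for Tnfrsf13c, -0.238 to 0.293 for Tnfrsf1b, -0.502 to 0.029 for Tnfrsf12a and -0.130 to 0.019 for Tnfrsf1a. Without reversing, the range was 0.452 to 0.947 for Tnf, -0.733 to -0.191 for Tnfrsf17, -0.456 to -0.121 for Tnfsf10, -0.345 to -0.137 for Tnfrsf13b and -0.287 to -0.074 for Tnfrsf14. The causes were not tested. With a mean of at least 5 FPKM required, 14 members remained testable, so Tnf and Tnfsf9 have no value there. Same-numbered replicates of the 2 genotypes had deviations correlated at 0.27, -0.10 and 0.06, and differently numbered ones at -0.29 to 0.25. These values cannot decide whether the numbers pair the mice. With the replicate block the log2 fold change of Tnf was 0.692 (limma adjusted p = 0.9930). The 14 untested members were left out by the 1 FPKM filter, and with no filter limma called 0 of all 44. By estimated reads depth limits Cd70, Tnfsf4 and Tnfsf18 most.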
